A study of Mus musculus with 6 samples.

Results

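The libraries described here are the 2 whose titles begin with EFPC, out of 6 in the series, set against the 4 whose titles begin with EF1 or EF2. They were chosen by title alone. All 6 came from Ba/F3 cells, a murine pro-B line whose growth needs interleukin-3, transduced with the ETV6::FRK fusion through a doxycycline-inducible retroviral system. The EFPC DOXp library received 500 ng/ml doxycycline and its title carries IL3n, and the EFPC DOXn library received none and its title carries IL3p. The same holds for the EF1 and EF2 libraries, with 2 in DOXp and 2 in DOXn. RNA was taken at 48 h and polyA-selected into strand-specific libraries. All groups thus carry the inducible fusion construct, which joins the ETS-family transcription factor ETV6 to the SRC-family kinase FRK. The drug, the induced fusion and the IL3 tag in the titles always vary jointly and cannot be told apart. The labels do not give the meaning of the 3 prefixes, nor whether cells of 1 prefix came from 1 clone or pool. EFPC has 1 library in each doxycycline group. An EFPC value in 1 group therefore has no replicate of its own, and its tests take their spread from the EF libraries. No label states that the libraries stem from separate cultures, and the p-values reflect only how far these libraries spread, which may be technical.

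Interleukin-3 signals through the receptor chains IL3RA and CSF2RB to the kinase JAK2 and the transcription factor STAT5, and a constitutively active tyrosine kinase can replace this signal in Ba/F3 cells. Interferon receptors signal through JAK kinases to transcription factors that bind a response element in the promoters of antiviral genes. ATF4 is the transcription factor of the integrated stress response, and it turns on genes of amino acid uptake and synthesis when the translation factor eIF2 is phosphorylated.

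Total counts were 43177842 in EFPC DOXp, 31138705 in EF1 DOXp and 40008727 in EF2 DOXp, and 36376467 in EFPC DOXn, 40179759 in EF1 DOXn and 30970019 in EF2 DOXn. Levels are given as CPM, counts scaled to library size with TMM factors, and differences as log2 with their standard error. A gene was called where the adjusted p of edgeR's quasi-likelihood test was under 0.05 over all 13595 genes tested. Of 24 listed markers of the B lineage 5 passed the filters, with a summed TPM (a level per transcript length) of 339 in EFPC DOXp, 228 to 234 in EF DOXp, 264 in EFPC DOXn and 197 to 217 in EF DOXn. Mast cell and basophil markers, 11 of 21 tested, summed to 1784 TPM in EFPC DOXp, 1933 to 2026 TPM in EF DOXp, 1428 TPM in EFPC DOXn and 1400 to 1529 TPM in EF DOXn. Within DOXp edgeR called 2 of these 11 higher in EFPC, Gata2 and Ms4a2, against 3.65% of all genes tested. It called 3 lower, Hdc, Il1rl1 and Srgn, against 5.97% of all genes tested, and the median of the 11 was -0.69. Of the B-lineage markers, the B-cell receptor component Cd79a ranged from 0.316 to 4.18 TPM over all 6 libraries, its partner Cd79b from 8.32 to 22.2 TPM, and the transcription factors Ikzf1 and Tcf3 from 13.2 to 45.9 TPM and from 58.5 to 100.2 TPM. Ptprc gave the largest part of the sum in all 6 libraries, with 184 TPM in EFPC DOXp and 138 TPM in EF1 and in EF2 DOXp. It had 114 TPM in EFPC DOXn, and 103 and 97.5 TPM in EF1 and EF2 DOXn. A higher marker sum in bulk RNA may stem from more cells of a type or from more RNA per cell, which cannot be told apart here, and the part of these sums in the results was not tested. Erythroid and megakaryocyte markers, 13 of 21 tested, summed to 5993 TPM in EFPC DOXp, 1019 to 1265 TPM in EF DOXp, 2150 TPM in EFPC DOXn and 867 to 1765 TPM in EF DOXn.

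Etv6, whose reads may hold those of the fusion, had 120 CPM in EFPC DOXp, against 259 and 230 CPM in EF1 and EF2 DOXp. Without doxycycline it had 94.7 CPM in EFPC, against 86.2 and 81.2 CPM in EF1 and EF2. The 3 DOXn libraries lay close together, while in DOXp the EFPC library was below both others. The difference within DOXp was -1.02 (SE 0.20, edgeR adjusted p = 0.0159), and within DOXn it was 0.18 (SE 0.19, edgeR adjusted p = 0.601). The response of Etv6 to doxycycline was 0.34 (SE 0.22, edgeR adjusted p = 0.622) in EFPC and 1.55 (SE 0.16, edgeR adjusted p = 0.000978) in EF. The difference between these responses, -1.20 (SE 0.27), was not called by edgeR (adjusted p = 0.0749) and was by DESeq2 (adjusted p = 0.0036). Frk was not analysed here. The part of the lower Etv6 level in the other DOXp results was not tested.

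Promoters of 4 genes called lower in EFPC within DOXp are shown here, because the lists they belong to, the interferon-response and GTPase genes and the ATF4-response genes, differ in their promoter motifs. Only windows holding the marked motif were taken, from genes also called for a different response to doxycycline in EFPC. The presence of the motif in these 4 thus follows from the choice. The sequences are from RefSeq (GRCm38.p6), run 5′ to 3′ in the direction of transcription, and hold 250 bases before and 50 after an annotated start. For Tgtp2 (chr11:49064163-49064462, minus strand), an immunity-related GTPase, and Oas3 (chr5:120777610-120777909, minus strand), an antiviral oligoadenylate synthetase, capitals mark GAAA and a second GAAA after any 2 bases (TTTC, 2 bases and TTTC on the other strand), a form of the interferon-stimulated response element. For the stress-induced nuclear protein gene Nupr1 (chr7:126625421-126625720, minus strand) and the cystine transporter gene Slc7a11 (chr3:50443564-50443863, minus strand), capitals mark TGATGNAA or its reverse complement TTNCATCA, a form of the element bound by ATF4.
Tgtp2: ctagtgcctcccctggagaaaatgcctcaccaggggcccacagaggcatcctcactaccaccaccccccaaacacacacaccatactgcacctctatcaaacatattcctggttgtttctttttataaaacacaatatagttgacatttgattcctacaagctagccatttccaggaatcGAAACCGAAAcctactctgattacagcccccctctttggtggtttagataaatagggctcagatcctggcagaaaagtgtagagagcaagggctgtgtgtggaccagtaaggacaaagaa
Oas3: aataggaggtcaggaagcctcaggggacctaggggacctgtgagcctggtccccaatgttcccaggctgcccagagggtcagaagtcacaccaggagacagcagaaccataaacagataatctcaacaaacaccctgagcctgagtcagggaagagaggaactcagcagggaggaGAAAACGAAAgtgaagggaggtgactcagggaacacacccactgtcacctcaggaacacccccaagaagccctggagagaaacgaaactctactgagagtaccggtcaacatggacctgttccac
Nupr1: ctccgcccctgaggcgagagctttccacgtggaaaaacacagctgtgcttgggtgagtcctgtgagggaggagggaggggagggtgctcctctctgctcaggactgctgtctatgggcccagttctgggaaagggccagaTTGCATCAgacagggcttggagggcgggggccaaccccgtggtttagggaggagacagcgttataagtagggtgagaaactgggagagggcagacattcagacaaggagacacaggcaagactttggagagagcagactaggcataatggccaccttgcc
Slc7a11: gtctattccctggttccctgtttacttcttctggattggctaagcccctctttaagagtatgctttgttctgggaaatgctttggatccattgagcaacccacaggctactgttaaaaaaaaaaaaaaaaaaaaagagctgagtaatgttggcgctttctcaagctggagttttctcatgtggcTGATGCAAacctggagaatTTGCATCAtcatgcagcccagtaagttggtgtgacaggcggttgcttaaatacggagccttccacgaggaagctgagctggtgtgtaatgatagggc

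Both motifs were searched on both strands. Of the genes tested, 9 of 16 on the GTPase list, 21 of 29 on the interferon list and 18 of 19 on the ATF4 list had a window. The GAAA pair was found for 9 of the 9 GTPase genes and for 11 of the 21 interferon genes (52.4%), against 3.99% of all genes with a window. By windows it was in 44.4% of those of the interferon genes, against 3.44% of all windows. It was found for none of 18 ATF4-list genes. TGATGNAA was found for 5 of these 18 genes (27.8%), for none of the 21 interferon genes and for 1 of the 9 GTPase genes, against 4.51% of all genes with a window. By windows it was in 23.8% of those of the ATF4-list genes, against 3.97% of all windows. None of the 4 windows printed held both motifs. A match describes the letters in the window and not a site in use.

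The first question is which genes set the EFPC cultures apart whatever the doxycycline group. Poln, which encodes a DNA polymerase of cross-link repair, and Ccr2, a chemokine receptor gene of monocytes, were lower in both EFPC libraries than in all 4 EF libraries. With the doxycycline group as a block, edgeR called these 2 genes lower (0.0147% of genes tested) and 0 genes higher (0%), with 3480 genes at an unadjusted p under 0.05 (25.6%). DESeq2 called 900 genes higher (7.03%) and 1095 lower (8.55%). Both EFPC libraries lay above all 4 EF libraries for 2116 genes (15.6%) and below them for 2201 (16.2%). In this fit a response that differs between the cultures counts as spread. With that difference as a term of the model edgeR called 760 genes higher and 1103 lower. Leaving out EFPC DOXn gave 481 higher and 814 lower, while leaving out EF2 DOXp, EF1 DOXn or EF2 DOXn gave 0 of either.

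Poln (chromosome 5, on GRCm38.p6) had 0.901 CPM in EFPC DOXp, against 13.8 and 13.7 CPM in EF1 and EF2 DOXp. It had 0.715 CPM in EFPC DOXn, against 11.3 and 10.1 CPM in EF1 and EF2 DOXn. The 2 EFPC libraries were alike and far below the other 4. The block difference was -3.91 (SE 0.22, edgeR adjusted p = 0.00863). Haus3, a mitotic spindle gene annotated on the same strand across part of Poln, had 57.5 CPM in EFPC DOXp, 44.1 and 33.5 CPM in EF1 and EF2 DOXp, 53.6 CPM in EFPC DOXn, and 48.6 and 47.0 CPM in EF1 and EF2 DOXn. Haus3 was thus highest in the EFPC libraries, and how reads shared by the pair were counted is not given.

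Ccr2 had 19.6 CPM in EFPC DOXp, against 105 and 102 CPM in EF1 and EF2 DOXp. It had 22.8 CPM in EFPC DOXn, against 84.5 and 86.0 CPM in EF1 and EF2 DOXn. The groups did not overlap, and the difference was -2.15 (SE 0.16, edgeR adjusted p = 0.0324). Without EF1 DOXp it was -2.11 (edgeR adjusted p = 0.0830). The Ccr2 call was also lost without EF2 DOXp, EF1 DOXn or EF2 DOXn (edgeR adjusted p of 0.112 to 0.173), at differences of -2.13 to -2.19. The Poln call was lost without EF2 DOXp, EF1 DOXn or EF2 DOXn (edgeR adjusted p of 0.0846 to 0.106), at differences of -3.88 to -3.95.

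Of the genes next in order of p among those lower in EFPC, none was called by edgeR over both groups (adjusted p = 0.0654 for each of 10), and each was called within DOXp. The chromatin remodeller gene Chd5 had 2.68 CPM in EFPC DOXp against 23.5 and 23.8 CPM in EF1 and EF2 DOXp, and 3.13 CPM in EFPC DOXn against 10.97 and 15.8 CPM in EF1 and EF2 DOXn, a difference of -2.59 (SE 0.32). Soat2, a cholesterol esterification enzyme, had 18.5 CPM in EFPC DOXp against 70.9 and 71.9 CPM in EF1 and EF2 DOXp, and 18.2 CPM in EFPC DOXn against 42.7 and 54.8 CPM in EF1 and EF2 DOXn. Slc7a7, an exporter of cationic amino acids, had 24.1 CPM in EFPC DOXp against 74.0 and 69.6 CPM in EF1 and EF2 DOXp, and 26.7 CPM in EFPC DOXn against 59.0 and 63.2 CPM in EF1 and EF2 DOXn. In these 3 genes the EFPC pair differed little between DOXp and DOXn. It lay below all 4 EF libraries, as the choice of genes required. Ddit4, an inhibitor of mTORC1 signalling, had 22.01 CPM in EFPC DOXp against 49.2 and 53.7 CPM in EF1 and EF2 DOXp, and 35.0 CPM in EFPC DOXn against 74.0 and 72.3 CPM in EF1 and EF2 DOXn. Pck2, mitochondrial phosphoenolpyruvate carboxykinase, had 77.9 CPM in EFPC DOXp against 281 and 267 CPM in EF1 and EF2 DOXp, and 155 CPM in EFPC DOXn against 331 and 414 CPM in EF1 and EF2 DOXn. Both genes were also lower in DOXp than in DOXn in each culture. The other 5 were Ifrd1, Tulp2, Dhrs7, Plgrkt and the long non-coding RNA gene Trp53cor1, with differences of -1.25, -1.86, -1.02, -1.27 and -1.64. Tulp2 overlaps other genes on the other strand and is uncertain as a single gene.

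Kcnab2, a potassium channel subunit gene, came first by p among genes higher in EFPC and was not called over both groups. It had 112 CPM in EFPC DOXp, against 37.9 and 43.8 CPM in EF1 and EF2 DOXp. It had 112 CPM in EFPC DOXn, against 49.3 and 41.5 CPM in EF1 and EF2 DOXn. The difference was 1.38 (SE 0.13, edgeR adjusted p = 0.0540), and DESeq2 called it. Its groups did not overlap, which the choice of genes required. C3ar1, the complement C3a receptor gene, had 20.9 CPM in EFPC DOXp against 4.86 and 4.69 CPM in EF1 and EF2 DOXp, and 41.6 CPM in EFPC DOXn against 17.0 and 14.1 CPM in EF1 and EF2 DOXn. The VEGF receptor gene Flt1 had 7.93 CPM in EFPC DOXp against 3.07 and 3.08 CPM in EF1 and EF2 DOXp, and 12.6 CPM in EFPC DOXn against 5.21 and 4.12 CPM in EF1 and EF2 DOXn. Pik3r1, the regulatory subunit of phosphoinositide 3-kinase, had 85.6 CPM in EFPC DOXp against 52.8 and 47.6 CPM in EF1 and EF2 DOXp, and 67.2 CPM in EFPC DOXn against 35.7 and 35.2 CPM in EF1 and EF2 DOXn. Ccne2, a cyclin of S-phase entry, had 36.9 CPM in EFPC DOXp against 10.9 and 12.6 CPM in EF1 and EF2 DOXp, and 46.2 CPM in EFPC DOXn against 24.9 and 23.03 CPM in EF1 and EF2 DOXn. In all 4 the EFPC libraries were above the EF libraries of their own doxycycline group. The remaining 7 were Crybg1, Zfp982, Col4a3bp, Ripor2, Cep85, Trappc13 and Net1, at differences of 0.81 to 1.82. Over both groups edgeR called 0 of the 12. They were picked by low p among genes with both EFPC libraries above all 4 EF libraries. Their unadjusted p under 0.05 and their lack of overlap thus follow from the choice. DESeq2 called all 12 from the same counts.

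**Figure D1:**
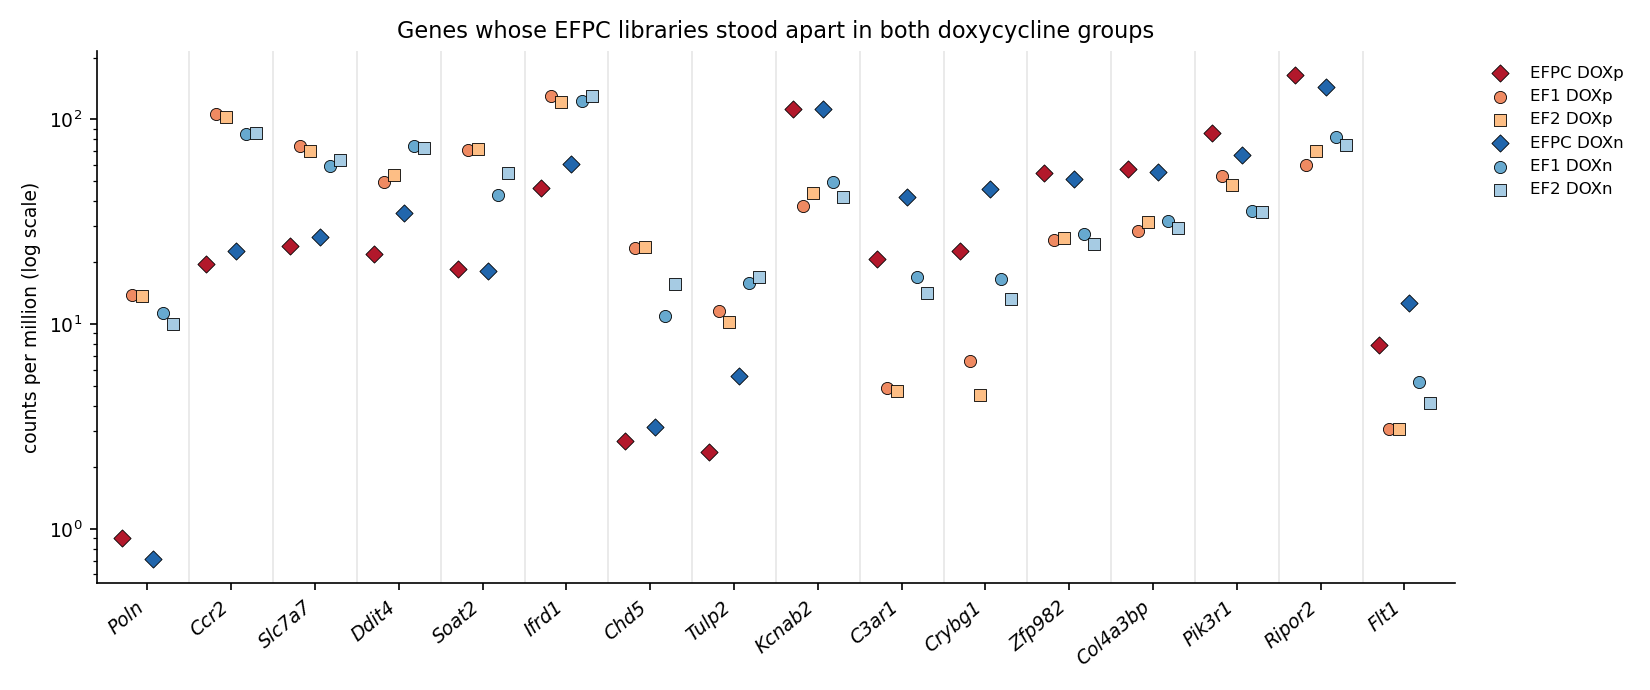
CPM (log axis) of 8 genes lower and 8 genes higher in EFPC, with 1 point per library. Diamonds are EFPC, circles EF1 and squares EF2, red shades DOXp and blue shades DOXn. Poln had 0.901 and 0.715 CPM in the EFPC libraries and 10.1 to 13.8 CPM in the EF libraries.

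Many genes that were higher in EFPC lay close together in the genome. Of the 12 named above, 5 were on chromosome 13 and 3 on chromosome 4 from 130 Mb on. The 370 genes of chromosome 13 that averaged 5 CPM or more had a median difference of 0.41 within DOXp and 0.40 within DOXn, against 0.03 and 0.04 over all 10159 genes of that level placed on a chromosome. Of the chromosome 13 genes, 71.1% were positive in both groups and 51.4% had both EFPC libraries above all 4 EF libraries, against 35.6% and 18.1% of all genes. The EF1 and EF2 libraries differed there by a median of -0.05 in DOXp and 0.04 in DOXn. Each of the EFPC library's own comparisons gave a like value, with 0.45 over EF1 and 0.39 over EF2 in DOXp, and 0.37 over EF1 and 0.43 over EF2 in DOXn. The genome was cut into windows of 10 Mb, and all 12 windows of chromosome 13 with at least 10 such genes had positive medians in both groups, from 0.26 to 0.51.

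Stretches of chromosomes 4 and 3 gave similar values, with bounds chosen after the window medians were seen and therefore with no test. The 229 genes of chromosome 4 from 130 Mb on had medians of 0.33 within DOXp and 0.35 within DOXn, and the 415 genes before 130 Mb had 0.01 and 0.01. The 70 genes of chromosome 3 below 50 Mb had 0.41 and 0.39, and the 390 genes beyond had -0.06 and -0.02. Inside the stretch below 50 Mb, the 10 genes from 20 to 30 Mb had -0.25 within DOXp and 0.24 within DOXn. Chromosome 14 had 0.20 and 0.13. Chromosome 13 was also picked after its values were seen, so a high share of higher genes in these parts follows from the choice. Of 844 genes of this level that DESeq2 called higher over both groups, 31.2% lay on chromosome 13 or in these stretches of chromosomes 4 and 3. Of 862 called lower 1.97% lay in these parts, against 6.57% of all 10179 genes. Outside them the medians were 0.01 within DOXp and 0.02 within DOXn over 9510 genes. The number of copies of these chromosomes was not analysed here.

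**Figure D2:**
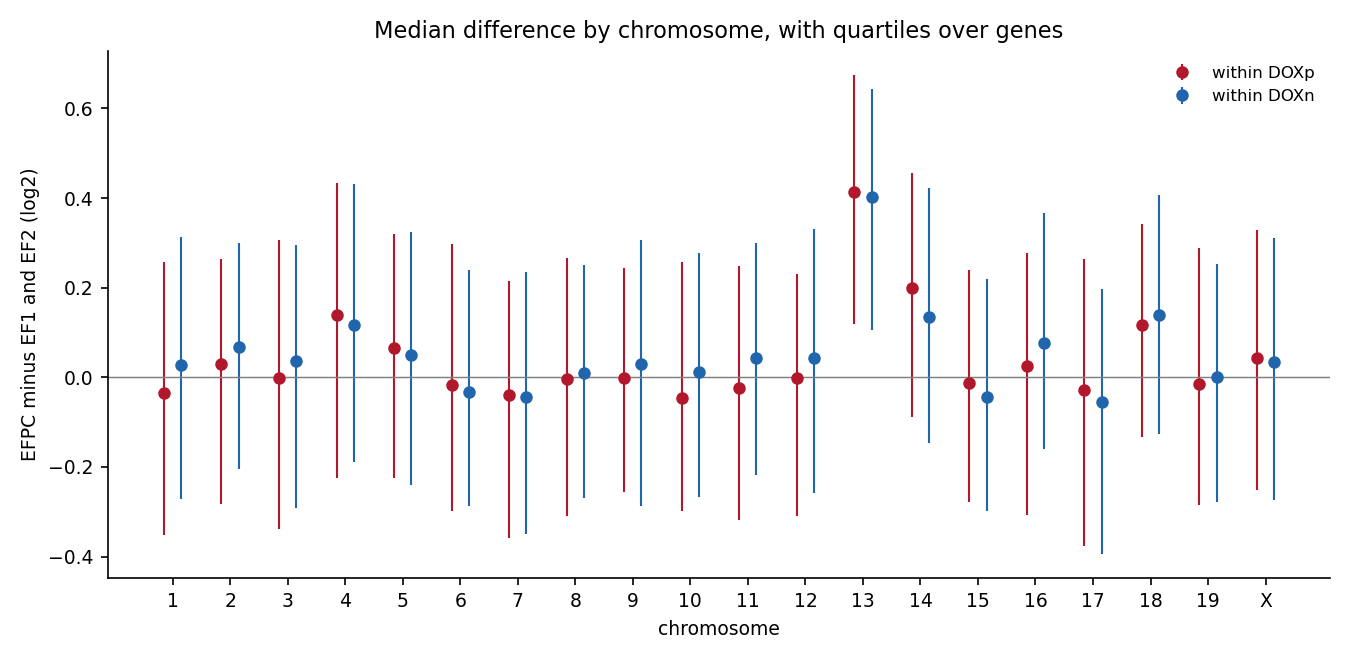
Median EFPC minus EF1 and EF2 difference (log2, y axis) of the genes of each chromosome (x axis), with bars from the lower to the upper quartile over genes, within DOXp (red) and within DOXn (blue). Chromosome 13 had medians of 0.41 and 0.40, while the medians over all genes were 0.03 and 0.04.

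Of 10 genes of the T-cell receptor gamma locus tested, on chromosome 13, 8 had both EFPC libraries above all 4 EF libraries. This held for 15.6% of all genes tested and for 51.4% of the chromosome 13 genes averaging 5 CPM or more. The variable segments Tcrg-V7 and Trgv2 lay within the EF range. The constant region gene Tcrg-C1 had 555 CPM in EFPC DOXp, against 140 and 181 CPM in EF1 and EF2 DOXp. It had 436 CPM in EFPC DOXn, against 240 and 185 CPM in EF1 and EF2 DOXn. Within DOXp the difference was 1.79 (edgeR adjusted p = 0.00333), and over both groups 1.43 (edgeR adjusted p = 0.0678, DESeq2 adjusted p = 6.6e-07). Tcrg-C2, Tcrg-C3 and Tcrg-C4 also had both EFPC libraries above all 4 EF libraries, with 0.86, 0.71 and 0.77 over both groups. These genes were singled out after their values were seen, and the constant regions are so alike that reads may be split among them. Of the 20 listed T and NK cell markers, 3 passed the filters, with a summed TPM of 14.8 in EFPC DOXp, 17.4 to 23.9 in EF DOXp, 12.6 in EFPC DOXn and 12.3 to 12.9 in EF DOXn.

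With doxycycline, edgeR called 496 genes higher in EFPC (3.65%) and 812 lower (5.97%), with 25.7% of genes at an unadjusted p under 0.05, and DESeq2 called 711 higher (5.67%) and 1088 lower (8.68%). Between libraries, 9.78% of the 10179 genes averaging 5 CPM or more differed by over 2-fold between EFPC and EF1 in DOXp and 9.35% between EFPC and EF2, against 1.10% between EF1 and EF2. Within DOXn these shares were 2.08% for EFPC and EF1 and 9.37% for EFPC and EF2, against 0.835% for EF1 and EF2. The DOXp and DOXn differences use separate libraries, and across the 10179 genes their Pearson's r was 0.41, given as a description, since genes are not independent. Of the 496 higher genes 76.2% were also positive within DOXn, with a median of 1.04 in DOXp and 0.32 in DOXn. Of the 812 lower genes 78.3% were negative within DOXn, with medians of -1.89 and -0.41. Over all genes averaging 5 CPM or more and placed on a chromosome, 54.05% were positive within DOXn.

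Among the largest calls within DOXp, S100a4, a calcium-binding protein gene of motile cells, had 151 CPM in EFPC DOXp against 1.29 and 0.530 CPM in EF1 and EF2 DOXp, and 124 CPM in EFPC DOXn against 45.9 and 83.2 CPM in EF1 and EF2 DOXn. In EFPC its level hardly differed between DOXp and DOXn, and in EF DOXp it was nearly absent. The difference within DOXp was 7.43 (SE 0.47, edgeR adjusted p = 0.000286). The hemoglobin genes Hba-a1, Hba-a2 and Hbb-y were also called higher. Hba-a1 had 583 CPM in EFPC DOXp against 52.4 and 37.0 CPM in EF1 and EF2 DOXp, and 155 CPM in EFPC DOXn against 149 and 24.7 CPM in EF1 and EF2 DOXn. Without doxycycline EF1 was thus as high as EFPC, so the EF libraries themselves differ in these genes. Sprn, a prion-like protein gene, had 51.7 CPM in EFPC DOXp, against 0.859 and 3.08 CPM in EF1 and EF2 DOXp.

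On the other side, Slamf9, a leukocyte surface receptor gene, had 0.0451 CPM in EFPC DOXp, from 2 counts, against 12.7 and 21.5 CPM in EF1 and EF2 DOXp. The EF mean was 379 times the EFPC level, with a 95% Poisson interval on the EFPC count of 105 to 3133, which covers counting error only. Slamf9 had 0.220 CPM in EFPC DOXn, against 3.29 and 3.26 CPM in EF1 and EF2 DOXn. It was thus lower in EFPC in both groups. Rsc1a1, a regulator of solute carriers, also had 2 counts in EFPC DOXp (0.0451 CPM), against 10.01 and 11.02 CPM in EF1 and EF2 DOXp, a ratio of 233 with an interval of 64.6 to 1928. Without doxycycline it had 17.0 CPM in EFPC, against 10.02 and 5.78 CPM in EF1 and EF2, so that its order was turned. Rsc1a1 lies within the gene Ddi2 on the same strand, and Ddi2 had 61.9 CPM in EFPC DOXp against 29.9 and 29.4 CPM in EF1 and EF2 DOXp. Reads of the pair may have been split, and Rsc1a1 is uncertain as a single gene.

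Without doxycycline, edgeR called 1 gene higher in EFPC (0.00736%) and 2 lower (0.0147%), with 2904 at an unadjusted p under 0.05 (21.4%), and DESeq2 called 385 higher (3.20%) and 459 lower (3.82%). The 2 lower ones were Poln at -3.90 (SE 0.34, edgeR adjusted p = 0.0394) and Ccr2 at -1.91 (SE 0.19, edgeR adjusted p = 0.0467). Neither call held without EF1 DOXn (edgeR adjusted p = 0.0514 each) or without EF2 DOXn (edgeR adjusted p = 0.206 each). Leaving out EF1 DOXp gave 408 higher and 502 lower, and leaving out EF2 DOXp gave 402 and 468. The higher one, Ryk, also lost its call without EF1 DOXn, without EF2 DOXn and with no filter on low counts. It was below the level needed for a named gene and is mentioned because it was the only one. Ryk, a receptor of WNT ligands, had 13.7 CPM in EFPC DOXn, against 1.82 and 1.82 CPM in EF1 and EF2 DOXn (edgeR adjusted p = 0.0467). Tmem245 and Kif1b led the higher genes of sufficient level without being called. Kif1b, a kinesin motor gene, had 62.5 CPM in EFPC DOXn, against 21.8 and 15.8 CPM in EF1 and EF2 DOXn. Tmem245 had 25.4 CPM in EFPC DOXn, against 8.70 and 7.44 CPM in EF1 and EF2 DOXn, and 22.5 CPM in EFPC DOXp against 21.97 and 23.9 CPM in EF1 and EF2 DOXp. Its EFPC level without doxycycline was that of all 3 cultures with it.

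The second question is which genes respond to doxycycline differently in EFPC. In EF edgeR called 1248 genes higher in DOXp than in DOXn (9.18%) and 862 lower (6.34%), with 33% of genes at an unadjusted p under 0.05, and DESeq2 called 1598 higher (13%) and 1014 lower (8.26%). In EFPC, from 1 library against 1 with the spread of the EF pairs, it called 66 higher (0.485%) and 59 lower (0.434%), with 11.5% at an unadjusted p under 0.05, and DESeq2 called 220 higher (1.75%) and 192 lower (1.53%). Without EF2 DOXn the edgeR counts were 378 and 80 in EF and 17 and 15 in EFPC, and without EF1 DOXn those in EFPC were 5 and 8. Without EF1 DOXp or EF2 DOXp, EF had 530 or 375 lower, and EFPC had 284 or 270 higher and 224 or 207 lower. The difference of the responses was called positive for 53 genes (0.39%) and negative for 210 (1.54%), with 14.6% at an unadjusted p under 0.05, and by DESeq2 for 159 (1.27%) and 511 (4.07%). Of the 210, 164 were higher with doxycycline in EF and not called in EFPC, 11 were higher in EF and lower in EFPC, 20 were lower in EFPC only, 2 were higher in both, 1 was lower in both and 12 were called in neither. Of the 53, 31 were higher in EFPC only, 5 were higher in both, 8 were lower in EF only and 9 were called in neither. These counts rest on both EF DOXn libraries, since leaving out EF1 DOXn gave 2 positive and 31 negative, and leaving out EF2 DOXn gave 3 and 23. Leaving out EF1 DOXp or EF2 DOXp gave more, 149 or 225 positive and 410 or 556 negative.

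**Figure D3:**
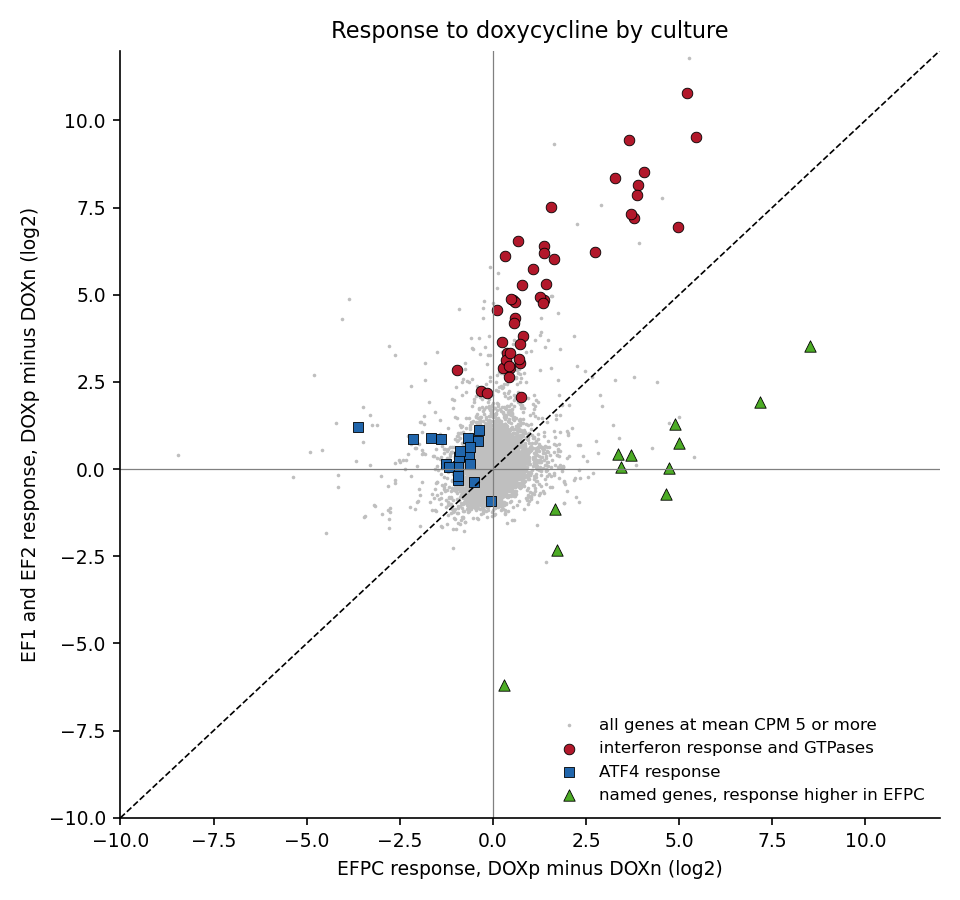
Response to doxycycline (DOXp minus DOXn, log2) in EFPC (x axis) and in EF1 and EF2 together (y axis), with 1 point per gene and equal responses on the dashed line. Red points are interferon-response and GTPase genes, blue squares ATF4-response genes and green triangles the 12 named genes with the higher response in EFPC. The red points lie above the line, with a list median of 4.20 in EF and 0.73 in EFPC for the interferon-response list.

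Interferon-response genes, which encode antiviral proteins and their regulators, were lower in EFPC within DOXp. Of 36 listed 29 were tested, and edgeR called all 29 lower in EFPC within DOXp (background, the share of all genes tested that were called, 5.97%), with a median of -3.92 against 0.00 over all genes. In EF all 29 were higher with doxycycline (background 9.18%), and in EFPC 1 was, Mx1 (background 0.485%). In EFPC 27 of the 29 were positive, with a median of 0.73, 13 were higher and 0 lower at an unadjusted p under 0.05 (background 11.5% in either direction), and DESeq2 called 8 higher (background 1.75%). The difference of the responses was called negative for 25 of the 29 (background 1.54%), with a median of -3.43, but for 1 without EF1 DOXn and for 1 without EF2 DOXn. Within DOXn edgeR called 0 of the 29, with 5 lower and 1 higher at an unadjusted p under 0.05 (background 21.4% in either direction), and DESeq2 called 4 lower (background 3.82%). These genes move together within a library, so the counts do not stand for as many separate measurements.

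By library the list summed to 938 CPM in EFPC DOXp against 12759 and 7171 CPM in EF1 and EF2 DOXp, and to 655 CPM in EFPC DOXn against 699 and 700 CPM in EF1 and EF2 DOXn. The EFPC library with doxycycline was thus near the libraries without it. Usp18, a protease that removes ISG15, had 6.42 CPM in EFPC DOXp against 625 and 311 CPM in EF1 and EF2 DOXp, and 2.17 CPM in EFPC DOXn against 2.64 and 2.49 CPM in EF1 and EF2 DOXn. Its response was 1.56 (SE 0.48) in EFPC and 7.51 (SE 0.40) in EF, a difference of -5.94 (SE 0.62, edgeR adjusted p = 0.00568). Irf7, the transcription factor that amplifies interferon expression, had 17.5 CPM in EFPC DOXp against 963 and 551 CPM in EF1 and EF2 DOXp, and 6.76 CPM in EFPC DOXn against 9.18 and 11.5 CPM in EF1 and EF2 DOXn. Oas3, whose promoter is printed above, had 25.9 CPM in EFPC DOXp against 737 and 383 CPM in EF1 and EF2 DOXp, and 18.4 CPM in EFPC DOXn against 20.6 and 17.2 CPM in EF1 and EF2 DOXn. Mx1, the antiviral GTPase, had 13.4 CPM in EFPC DOXp against 414 and 194 CPM in EF1 and EF2 DOXp, and 0.302 CPM in EFPC DOXn against 0.648 and 0.128 CPM in EF1 and EF2 DOXn. It rose by 5.45 (SE 0.84, edgeR adjusted p = 0.0296) in EFPC and by 9.51 (SE 0.61, edgeR adjusted p = 0.000138) in EF, and the difference, -4.06 (SE 1.35), was not called (edgeR adjusted p = 0.215).

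The guanylate-binding and immunity-related GTPases, which act on the vacuoles of intracellular pathogens, followed the same order. Of 18 listed 16 were tested, and all 16 were lower in EFPC within DOXp (background 5.97%), with a median of -5.99. In EF all 16 were higher with doxycycline (background 9.18%), and in EFPC 1 was, Iigp1 (background 0.485%). In EFPC 15 of the 16 were positive, with a median of 1.22. At an unadjusted p under 0.05, 7 were higher and 1 lower (background 11.5% in either direction). DESeq2 called 7 higher (background 1.75%) and 1 lower (background 1.53%). The difference of the responses was called negative for 9 (background 1.54%), but for 1 without EF1 DOXn and for 1 without EF2 DOXn. Tgtp2 had 24.7 CPM in EFPC DOXp against 1399 and 757 CPM in EF1 and EF2 DOXp, and 19.6 CPM in EFPC DOXn against 17.1 and 14.0 CPM in EF1 and EF2 DOXn. Its response was 0.33 (SE 0.40) in EFPC and 6.11 (SE 0.35) in EF, a difference of -5.78 (SE 0.53, edgeR adjusted p = 0.00468). Irgm2 had 23.5 CPM in EFPC DOXp against 565 and 334 CPM in EF1 and EF2 DOXp, and 16.0 CPM in EFPC DOXn against 17.0 and 13.9 CPM in EF1 and EF2 DOXn. In both genes the EFPC library with doxycycline lay just above the range of the DOXn libraries. Gbp2b had 6.94 CPM in EFPC DOXp against 1065 and 445 CPM in EF1 and EF2 DOXp, and 0.550 CPM in EFPC DOXn against 0.873 and 1.31 CPM in EF1 and EF2 DOXn. Its response in EFPC was 3.65 (SE 0.72), not called (edgeR adjusted p = 0.0707), against 9.45 (SE 0.54) in EF. Near-identical members such as Tgtp1 and Tgtp2 may share reads.

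Genes of MHC class I presentation were lower in EFPC within DOXp for 16 of 22 tested (background 5.97%), with a median of -1.81. B2m, which encodes beta-2 microglobulin, had 517 CPM in EFPC DOXp against 2188 and 1617 CPM in EF1 and EF2 DOXp, and 307 CPM in EFPC DOXn against 489 and 634 CPM in EF1 and EF2 DOXn. Within DOXn edgeR called 0 of the 22, with 13 lower and 1 higher at an unadjusted p under 0.05 (background 21.4% in either direction), and DESeq2 called 10 lower (background 3.82%). The difference of the responses was called negative for 4 (background 1.54%), H2-M3, H2-T22, H2-T24 and the class I regulator Nlrc5. Nlrc5 had 39.8 CPM in EFPC DOXp against 291 and 195 CPM in EF1 and EF2 DOXp, and 16.4 CPM in EFPC DOXn against 18.6 and 13.1 CPM in EF1 and EF2 DOXn.

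ATF4-response genes were lower in EFPC within DOXp for 17 of 19 tested of 22 listed (background 5.97%), with a median of -1.75. Within DOXn the median was -0.73, and edgeR called 0 of the 19, with 14 lower and 0 higher at an unadjusted p under 0.05 (background 21.4% in either direction), while DESeq2 called 11 lower (background 3.82%). Over both groups edgeR also called 0, with 17 lower and 0 higher at an unadjusted p under 0.05 (background 25.6% in either direction), and DESeq2 called 15 lower (background 8.55%). The list summed to 2137 CPM in EFPC DOXp against 6898 and 6907 CPM in EF1 and EF2 DOXp, and to 3730 CPM in EFPC DOXn against 5976 and 6055 CPM in EF1 and EF2 DOXn. Both EFPC libraries were below all 4 EF libraries, and EFPC DOXp was the lowest. With doxycycline 7 of the 19 were called higher in EF (background 9.18%), and 2 were called lower in EFPC, Nupr1 and Trib3 (background 0.434%). In EFPC all 19 were negative, with a median of -0.91, 15 were lower and 0 higher at an unadjusted p under 0.05 (background 11.5% in either direction), and DESeq2 called 9 lower (background 1.53%).

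Nupr1 had 0.924 CPM in EFPC DOXp, against 100 and 94.1 CPM in EF1 and EF2 DOXp. It had 11.4 CPM in EFPC DOXn, against 35.6 and 48.2 CPM in EF1 and EF2 DOXn. It fell by 3.62 (SE 0.32, edgeR adjusted p = 0.00378) with doxycycline in EFPC and rose by 1.21 (SE 0.18, edgeR adjusted p = 0.0055) in EF, a difference of -4.84 (SE 0.37, edgeR adjusted p = 0.00283). Trib3, a pseudokinase induced by ATF4, had 10.1 CPM in EFPC DOXp against 309 and 344 CPM in EF1 and EF2 DOXp, and 45.0 CPM in EFPC DOXn against 162 and 198 CPM in EF1 and EF2 DOXn. Its responses, -2.15 (SE 0.25, edgeR adjusted p = 0.0125) in EFPC and 0.86 (SE 0.17, edgeR adjusted p = 0.0165) in EF, also ran in opposite directions. Slc7a11 had 13.1 CPM in EFPC DOXp against 106 and 117 CPM in EF1 and EF2 DOXp, and 41.3 CPM in EFPC DOXn against 74.5 and 45.4 CPM in EF1 and EF2 DOXn. Without doxycycline EFPC was thus close to EF2, and the gap opened in DOXp. The difference of the responses was called negative for 5 of the 19 (background 1.54%), namely Nupr1, Trib3, Slc7a11, the asparagine synthetase gene Asns and the stress sensor gene Sesn2, and for 4 without EF1 DOXn and 2 without EF2 DOXn.

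The remaining members of the ATF4 list were lower by degrees. Ddit3, which encodes the stress factor CHOP, had 4.28 CPM in EFPC DOXp against 87.3 and 83.6 CPM in EF1 and EF2 DOXp, and 5.58 CPM in EFPC DOXn against 25.8 and 52.9 CPM in EF1 and EF2 DOXn. Atf4 itself had 180 CPM in EFPC DOXp against 596 and 618 CPM in EF1 and EF2 DOXp, and 345 CPM in EFPC DOXn against 563 and 586 CPM in EF1 and EF2 DOXn. Asns had 87.2 CPM in EFPC DOXp against 553 and 565 CPM in EF1 and EF2 DOXp, and 207 CPM in EFPC DOXn against 476 and 530 CPM in EF1 and EF2 DOXn. The proline synthesis gene Pycr1 had 6.55 CPM in EFPC DOXp against 53.4 and 77.7 CPM in EF1 and EF2 DOXp, and 12.1 CPM in EFPC DOXn against 39.8 and 51.7 CPM in EF1 and EF2 DOXn. In these 4 genes neither EFPC library overlapped the EF libraries. The 2 members not called within DOXp were Shmt2 and Psph, of one-carbon and serine metabolism. Psph had 5.79 CPM in EFPC DOXp, against 13.8 and 5.04 CPM in EF1 and EF2 DOXp, so that the groups overlapped. Ddit4, Slc7a7 and Pck2, described above, are outside the list.

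**Figure D4:**
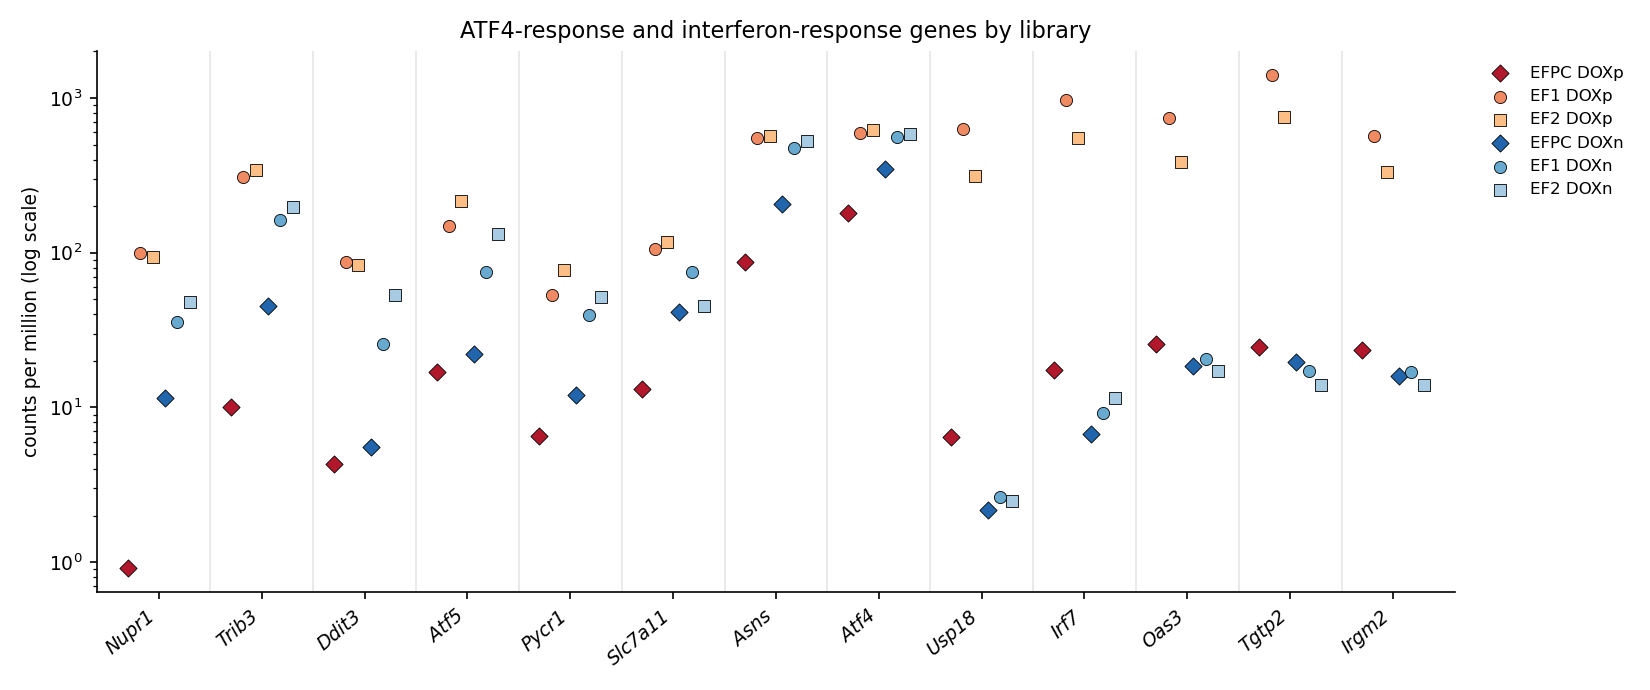
CPM (log axis) of 8 ATF4-response genes and 5 interferon-response or GTPase genes, with 1 point per library and the marks as in the plot of culture genes. In the ATF4 genes both EFPC libraries sit low, for example Nupr1 at 0.924 and 11.4 CPM. In the interferon and GTPase genes only EF1 and EF2 DOXp sit high, for example Tgtp2 at 1399 and 757 CPM.

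Targets of STAT5, the transcription factor of the interleukin-3 signal, differed in part. Of 21 tested, edgeR called 9 lower in EFPC within DOXp (background 5.97%) and 0 within DOXn. There, 4 were higher and 1 lower at an unadjusted p under 0.05, a share near the background of 21.4%, and DESeq2 called 2 higher (background 3.20%). In EF 10 were higher (background 9.18%) and 1 lower (background 6.34%) with doxycycline. In EFPC 1 was higher, Gzmb (background 0.485%), and 1 lower, Id1 (background 0.434%). The response was lower in EFPC for 6 (background 1.54%), namely Cish, Socs1, Pim2, Osm, Lif and Il2ra. Cish, a feedback inhibitor of cytokine signalling, had 35.1 CPM in EFPC DOXp against 147 and 117 CPM in EF1 and EF2 DOXp, and 93.4 CPM in EFPC DOXn against 57.7 and 41.2 CPM in EF1 and EF2 DOXn. The order of the cultures was thus opposite in the 2 groups, and the responses differed by -2.83 (edgeR adjusted p = 0.0120). Pim2, a survival kinase gene, had 97.2 CPM in EFPC DOXp against 275 and 347 CPM in EF1 and EF2 DOXp, and 90.8 CPM in EFPC DOXn against 42.7 and 66.3 CPM in EF1 and EF2 DOXn. Socs2, another feedback inhibitor, had 47.3 CPM in EFPC DOXp, 48.2 and 53.2 CPM in EF1 and EF2 DOXp, 48.0 CPM in EFPC DOXn, and 58.8 and 57.0 CPM in EF1 and EF2 DOXn. Its 6 values lay within a narrow range.

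Cytokine receptor genes were next. Of 11 tested, 7 were lower in EFPC within DOXp (background 5.97%), and the difference of the responses was called negative for 4 (background 1.54%), Csf2rb, Il1rl1, Il2ra and Il2rb. Csf2rb, the signalling chain of the interleukin-3 receptor, had 1306 CPM in EFPC DOXp against 3690 and 3739 CPM in EF1 and EF2 DOXp, and 948 CPM in EFPC DOXn against 887 and 887 CPM in EF1 and EF2 DOXn. It was higher with doxycycline in EF by 2.07 (edgeR adjusted p = 0.00045), and in EFPC the difference of 0.46 was not called (edgeR adjusted p = 0.53). Il3ra, the ligand-binding chain, had 40.05 CPM in EFPC DOXp against 41.2 and 51.1 CPM in EF1 and EF2 DOXp, and 26.2 CPM in EFPC DOXn against 34.4 and 54.9 CPM in EF1 and EF2 DOXn, with none of its comparisons called. Il2rb, a signalling chain of the interleukin-2 receptor, had 5.74 CPM in EFPC DOXp against 41.2 and 28.3 CPM in EF1 and EF2 DOXp, and 35.5 CPM in EFPC DOXn against 32.9 and 28.3 CPM in EF1 and EF2 DOXn. Here EFPC DOXp stood alone, and the other 5 libraries lay together.

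A smaller set of genes had a more positive response in EFPC than in EF, which includes genes that fell with doxycycline in EF only. Scin, an actin-severing protein gene, had 1403 CPM in EFPC DOXp against 200 and 505 CPM in EF1 and EF2 DOXp, and 44.2 CPM in EFPC DOXn against 164 and 260 CPM in EF1 and EF2 DOXn. The EFPC culture was thus highest with doxycycline and lowest without it, and the responses differed by 4.25 (SE 0.73, edgeR adjusted p = 0.0329). F13a1, the coagulation factor XIII A chain, had 1386 CPM in EFPC DOXp against 267 and 460 CPM in EF1 and EF2 DOXp, and 127 CPM in EFPC DOXn against 269 and 426 CPM in EF1 and EF2 DOXn. The cholesterol exporter gene Abca1 had 56.6 CPM in EFPC DOXp against 26.6 and 19.4 CPM in EF1 and EF2 DOXp, and 5.47 CPM in EFPC DOXn against 15.3 and 18.6 CPM in EF1 and EF2 DOXn. Both genes had the same crossing order. Pdzd2 had 47.8 CPM in EFPC DOXp against 3.93 and 3.98 CPM in EF1 and EF2 DOXp, and 3.63 CPM in EFPC DOXn against 2.94 and 3.003 CPM in EF1 and EF2 DOXn, so that EFPC DOXp alone stood out.

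Muc6, a gel-forming mucin gene, had 51.7 CPM in EFPC DOXp against 6.94 and 11.4 CPM in EF1 and EF2 DOXp, and 0.137 CPM in EFPC DOXn against 0.598 and 1.02 CPM in EF1 and EF2 DOXn. It was called higher with doxycycline in both cultures, by 8.52 (SE 0.64, edgeR adjusted p = 0.0023) in EFPC and by 3.53 (SE 0.35, edgeR adjusted p = 0.000974) in EF. Acss1 and Pdcd4 were called lower with doxycycline in EF, at -2.32 and -1.13, and had 1.71 and 1.68 in EFPC, which edgeR did not call. Plekhh2, Plxdc1, Ccdc180, Sprn and S100a4 complete the 12 named genes with the higher response, with differences of 5.34, 4.70, 3.61, 5.25 and 6.48. For S100a4 the response was 0.29 in EFPC and -6.20 in EF, so that the change lay in EF. Among the genes with the lower response, Slfn2, a regulator of leukocyte quiescence, had 1.44 CPM in EFPC DOXp against 310 and 107 CPM in EF1 and EF2 DOXp, and 24.1 CPM in EFPC DOXn against 13.1 and 7.76 CPM in EF1 and EF2 DOXn. Cd69, an early activation antigen of lymphocytes, had 1.67 CPM in EFPC DOXp against 170 and 70.8 CPM in EF1 and EF2 DOXp, and 10.4 CPM in EFPC DOXn against 14.2 and 10.9 CPM in EF1 and EF2 DOXn. Tarm1, an activating receptor gene of myeloid cells, had 0.203 CPM in EFPC DOXp against 18.5 and 15.7 CPM in EF1 and EF2 DOXp, and 3.79 CPM in EFPC DOXn against 5.36 and 8.21 CPM in EF1 and EF2 DOXn. In EFPC each of the 3 had its lower value with doxycycline, and for Tarm1 edgeR called this difference, at -4.20 (SE 0.52, adjusted p = 0.0134).

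Some genes of the cell cycle and of sterol synthesis were higher in EFPC than in EF with doxycycline. Of 20 G2 and M phase genes, 6 were higher in EFPC within DOXp (background 3.65%), with a median of 0.57. In EF 11 of the 20 were lower with doxycycline (background 6.34%), and in EFPC edgeR called 0 in either direction, with 0 at an unadjusted p under 0.05 and 0 by DESeq2. Ccnb1, the cyclin of mitotic entry, had 224 CPM in EFPC DOXp against 104 and 101 CPM in EF1 and EF2 DOXp, and 234 CPM in EFPC DOXn against 176 and 156 CPM in EF1 and EF2 DOXn. Kif20a, a kinesin of cell division, had 175 CPM in EFPC DOXp against 77.6 and 67.2 CPM in EF1 and EF2 DOXp, and 166 CPM in EFPC DOXn against 134 and 101 CPM in EF1 and EF2 DOXn. Neither the 28 S phase nor the 20 G2 and M phase genes held a call for a difference of the responses by edgeR. At an unadjusted p under 0.05, 1 and 9 were positive (background 14.6% in either direction), and DESeq2 called 1 of each list positive (background 1.27%). Of the S phase genes 4 were higher in EFPC within DOXp (background 3.65%), Fen1, Rfc2, Rpa2 and Slbp. The level of these genes in DOXp stands beside the interferon result, since the libraries with the high interferon genes had the low cell cycle genes, and this relation was not tested.

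Of 23 cholesterol synthesis genes, 3 were higher in EFPC within DOXp (background 3.65%), Idi1, Hmgcs1 and Dhcr7. Within DOXn edgeR called 0, with 7 higher and 0 lower at an unadjusted p under 0.05 (background 21.4% in either direction) and 5 higher by DESeq2 (background 3.20%). Idi1, the isopentenyl diphosphate isomerase gene, had 313 CPM in EFPC DOXp against 106 and 67.9 CPM in EF1 and EF2 DOXp, and 355 CPM in EFPC DOXn against 202 and 140 CPM in EF1 and EF2 DOXn. Idi1 and Hmgcs1 lie on chromosome 13, described above. Dhcr7, on chromosome 7, had 103 CPM in EFPC DOXp against 54.7 and 54.5 CPM in EF1 and EF2 DOXp, and 99.1 CPM in EFPC DOXn against 92.1 and 68.7 CPM in EF1 and EF2 DOXn.

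Glycolysis genes had close medians in both cultures. Their median response to doxycycline was -0.65 in EFPC and -0.69 in EF over 18 genes tested. In EF 1 was called higher (background 9.18%) and 10 lower (background 6.34%), and in EFPC 0, where 12 were lower at an unadjusted p under 0.05 (background 11.5% in either direction) and DESeq2 called 5 lower (background 1.53%). Of the 18, edgeR called 0 for a difference of the responses, with 3 negative at an unadjusted p under 0.05, a share near the background of 14.6%. DESeq2 called 2 of the 18 negative (background 4.07%). Of the 13 mitochondrially encoded genes, ND1 and ND3 were called higher in EFPC within DOXp (background 3.65%). ND1, a subunit of respiratory complex I, had 2622 CPM in EFPC DOXp against 1220 and 1333 CPM in EF1 and EF2 DOXp, and 2241 CPM in EFPC DOXn against 2235 and 1910 CPM in EF1 and EF2 DOXn. The median of the 13 was 0.55 within DOXp and -0.12 within DOXn.

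**Figure D5:**
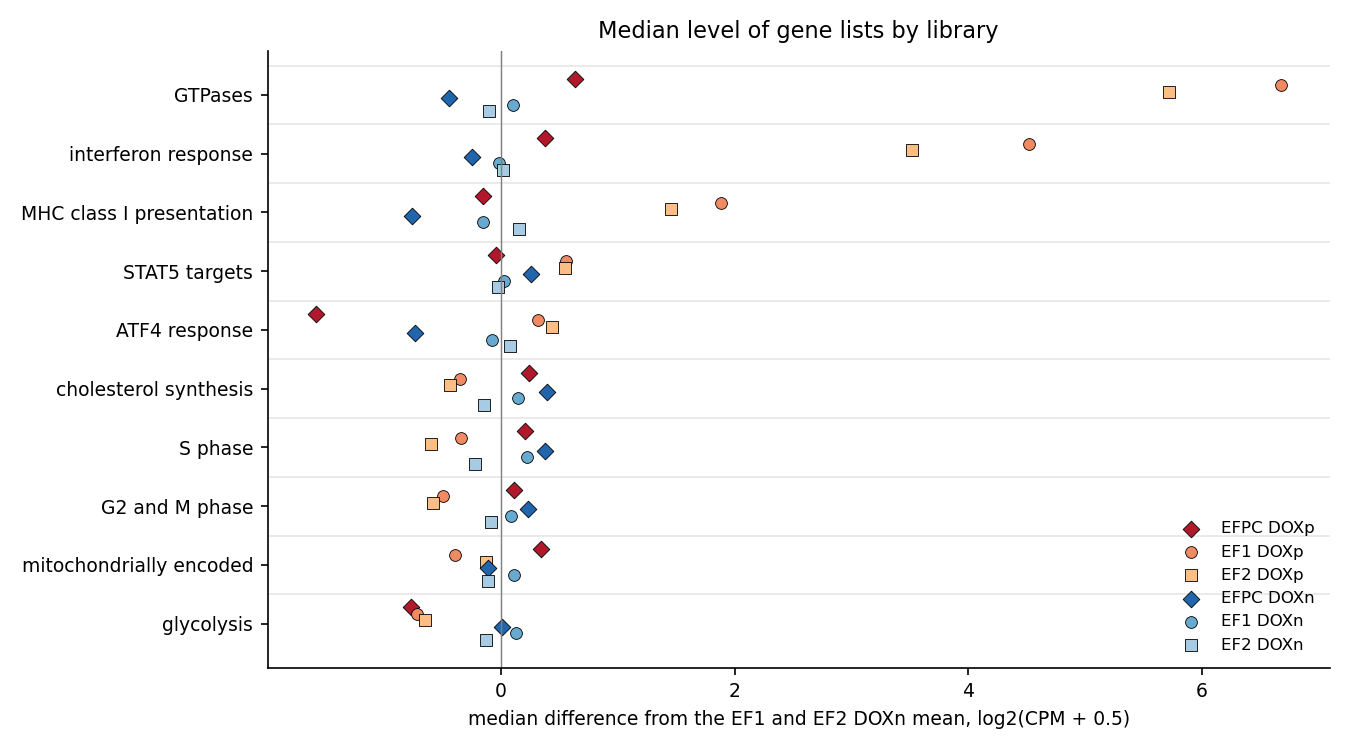
Median difference of 10 gene lists from the mean of the EF1 and EF2 DOXn libraries, in log2(CPM + 0.5), with 1 point per library and the marks as in the plot of culture genes. The interferon-response list stood at 0.38 in EFPC DOXp against 4.52 and 3.52 in EF1 and EF2 DOXp, and the ATF4 list at -1.58 in EFPC DOXp and -0.73 in EFPC DOXn.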

How the data were processed

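RNA-seq gene counts of 6 mouse Ba/F3 libraries were used, in a table of 14238 genes whose lowest count in any library is 1, so genes silent in a library were not analysed here. The authors' deposited counts are raw reads per gene. The submitters' processing notes name HISAT2, DESeq2 and mm10, while no source used here gives how reads were assigned to genes or with which strand setting. The authors' deposited TPM values were used for marker levels, and 12 columns of FPKM and regularised log2 values were not used. Totals of 30970019 to 43177842 reads set the precision, and intervals cover counting error only.

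Libraries were grouped by title. Counts were scaled by TMM and filtered by edgeR (4.0.16, with R 4.3.3), leaving 13595 genes. Its quasi-likelihood test with Benjamini-Hochberg adjustment over these genes was fitted with the doxycycline group as a block (3 residual degrees of freedom) or with 4 group means (2). The alternatives were DESeq2 (1.42.0), limma-voom (3.58.1), other scalings and filters, a prefix block and leaving out each library. In simulated counts, with 100 genes changed at each fold, the test recovered 89% of 4-fold and 36% of 2-fold changes within DOXp. For the difference of responses it recovered 73% and 13%. It also called unchanged genes, 17 within DOXp and 14 for the difference of responses. Names, positions and promoters came from RefSeq (GRCm38.p6), with 99.77% of genes matched.

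The genes named were the 12 largest calls in each direction with a mean of at least 5 CPM, with both EFPC libraries outside the EF range for the culture comparison. For the responses the largest group mean had to reach 5 CPM. Within each doxycycline group the number was 5, and lists were filled by p where fewer were called. Predicted genes were passed over, and members of the lists were named by size of effect. Some genes that the rule names are not reported here. The members, the 35 gene lists and the rules were chosen with earlier results of these data known. EF1 and EF2 carry the same prefix in DOXp and DOXn, but the labels do not say that a prefix marks shared cells, and with 2 EF pairs their deviations (r = 0.23 across genes) do not establish a pairing.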

Additional observations from a re-analysis of the deposited data

Results flagged for a closer look

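The response to doxycycline differed between EFPC and EF by the test of the difference itself (edgeR's quasi-likelihood test). The difference was called for 53 genes in the positive direction (0.39% of genes tested) and 210 in the negative one (1.54%). These counts rest on both EF DOXn libraries, as stated above. Most of the genes listed below lost their call when EF1 DOXn or EF2 DOXn was left out. Each value here is the EFPC response minus the EF response on the log2 scale, with 1 EFPC library in each doxycycline group.

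In the positive direction, S100a4 had 6.48, Plekhh2 5.34, Sprn 5.25, Muc6 4.99, Plxdc1 4.70 and Scin 4.25. Acss1 had 4.03, Ccdc180 3.61, F13a1 3.39, Pdzd2 3.31, Abca1 2.93 and Pdcd4 2.81. In the negative direction, Rsc1a1 had -8.86, Rab11fip5 -8.73, Slfn2 -8.38, Mpeg1 -7.67 and Usp18 -5.94. Cd69 had -5.89, Il18bp -5.87, Tgtp1 -5.87, Gbp2b -5.80, Tgtp2 -5.78 and Tarm1 -5.54.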

How the results depend on the processing

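Counts are given as higher and lower in EFPC. Over both groups edgeR called 0 and 2, DESeq2 900 and 1095, limma-voom 6 and 33, and a model with the interaction 760 and 1103, and leaving out 1 library gave 0 to 481 and 0 to 814. Within DOXn DESeq2 called 385 and 459, plain library totals gave 5 lower, no filter on low counts 0 higher, a minimum mean of 1 CPM 4 lower, and leaving out 1 library 0 to 408 and 0 to 502. For the difference of responses DESeq2 called 159 and 511, limma-voom 138 lower, and leaving out 1 library gave 2 to 225 and 23 to 556. For the response in EFPC DESeq2 called 220 and 192, and leaving out 1 library gave 5 to 284 and 8 to 224, while in EF it gave 378 to 1234 and 80 to 590. Within DOXp the counts stayed within 1.5 times of 496 and 812 in every setting run. No named gene changed direction in the settings run, and the call was lost in 49 of their values for the difference of responses, against 223 on the same side, and in 7 over both groups, 5 within DOXn and 1 within DOXp. Most of the calls lost for the difference of responses were lost without EF1 DOXn or without EF2 DOXn. The causes were not tested.

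The prefix as a replicate block gave 814 and 997 over both groups as a random term in limma-voom, and 363 and 668 on counts summed per prefix. As a fixed block it gave 370 and 808 for the difference of responses, 2082 and 1750 for the response in EF, and 378 and 313 for that in EFPC. The pairing is not established by the labels. Within DOXp and within DOXn no block could be fitted, with 1 library per prefix. The settings for the responses in EF and in EFPC were added after seeing the data. EFPC has 1 library per group, and low counts widen the values of genes such as Slamf9 and Rsc1a1.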
